A study of Mus musculus with 12 samples.

Results

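The genes described here carry the names of ciliary axoneme proteins, together with Foxj1 and the Rfx family of transcription factors, some of which are known to drive ciliary genes, in neonatal inner hair cells (IHCs) and outer hair cells (OHCs) of the mouse cochlea. They are the protein-coding genes whose GENCODE name is Cfap, Dnah, Dnai, Dnal or Rsph followed by a number, together with Foxj1 and Rfx1 to Rfx7. The rule uses names alone and no measured value. It takes 86 of the 55416 genes counted, of which 21627 are protein-coding. These are 48 Cfap genes (cilia and flagella associated proteins), 15 Dnah genes (axonemal dynein heavy chains), 7 Dnai and Dnal genes (dynein intermediate and light chains), 8 Rsph genes (radial spoke proteins) and 8 transcription factor genes. RNA-seq was available for 12 libraries of the organ of Corti of wild-type mice at P0, 6 from pools of IHCs and 6 from pools of OHCs. IHCs were sorted as cells positive for Atoh1-GFP, and OHCs as cells positive for Atoh1-GFP that also showed the label of Insm1-GFP-Cre and R26-TdTomato. The cell type and the gate that defined it therefore cannot be told apart. The cells of each library came from several pups, so p-values measure the spread between pools.

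A motile cilium is built on an axoneme, a ring of doublet microtubules around a central pair, which dynein arms bend and radial spokes regulate. FOXJ1 is the transcription factor that turns on the genes of motile cilia, and several RFX factors bind an element called the X-box in the promoters of ciliary genes. Each hair cell of the newborn cochlea carries a single cilium, the kinocilium, beside its stereocilia, and the cochlear kinocilium is lost as the hair cells mature.

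The pools carried the genes that define them. All 4 IHC markers (Slc17a8, Tbx2, Fgf8 and Otof) were IHC-enriched and 3 of the 4 OHC markers (Insm1, Bcl11b and Neurod6) were OHC-enriched, while the fourth, Ikzf2, did not pass the test. Counts on genes ranged from 31490204 to 44017309 per IHC library and from 29564827 to 39121988 per OHC library. Counts on the 86 genes ranged from 57344 to 126828 and from 78180 to 113453. Library IHC1 stood apart. Ribosomal RNA genes took 56.9% of its counts, against 21.5% to 37.0% in the other IHC libraries and 23.4% to 36.4% in the OHC libraries, and it held the highest IHC value for 18 of the 73 genes tested.

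The X-box is shown first because it is the sequence by which RFX factors are known to reach ciliary genes. RefSeq promoters of GRCm38.p6, each 250 bases before to 50 after a gene's start, were at hand for 57 of the 86 genes. The X-box consensus, a pair of inverted 6-base half-sites with 0 to 3 bases between them, was found on either strand in the promoters of 9 of these 57 genes (15.8%), against 474 of the 27025 genes of the promoter table (1.75%). The 10 matches, placed on GRCm39 by exact match of the whole promoter, are given with 7 bases on each side, read in the direction of the consensus and with the match in capitals.

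Cfap45, chr1:172348671-172348698, minus strand: ctgacgcGTTACCATAGCAACccaagaa
Cfap44, chr16:44215128-44215155, minus strand: tactgcgGTTGCCATAGCAACgtccctc
Cfap298, distal match, chr16:90731905-90731932, minus strand: ggttttgGTTGCCCGGGCAACagctact
Cfap298, proximal match, chr16:90731785-90731813, minus strand: tttgactGTTGCCCCTGGCAACagccact
Cfap20dc, chr14:13803374-13803401, plus strand: cccctcaGTTGCCTGGGCAACggctcag
Cfap58, chr19:47926085-47926111, minus strand: gtcttcgGTCGCCTGGCAACcgccacg
Cfap99, chr5:34445967-34445993, minus strand: gggcgccGTCACCTAGCAACgccgcgc
Dnai1, chr4:41569768-41569794, minus strand: tgacgcgGTTACCCAGCAACcgacagg
Dnai2, chr11:114618205-114618231, minus strand: tttaccaGTTGCCTAGCAACcctggcc
Rsph3b, chr17:7215727-7215753, plus strand: cccatcgGTTGCCGAGCAACccgaggt

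All but the match in Rsph3b lie before the RefSeq start that defines the promoter, while the GENCODE gene starts further upstream in some of these genes, so that the Cfap45 match, for example, lies inside the GENCODE gene. The half-site GTTGCC alone, which overlaps the consensus, was present on either strand in 21 of the 57 genes (36.8%), against 14.1% of all genes. The forkhead letters TGTTTAC were present in 3 of 57 (5.26%, against 4.05% of all genes) and TGTTTGT in 2 of 57 (3.51%, against 7.60%). A match describes letters in these windows and not a bound site. Among the genes given below as IHC-enriched, Cfap45, Cfap46, Cfap126 and Dnah11 had an entry in the promoter table, and Foxj1, Cfap90, Cfap144 and Cfap251 had none.

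IHCs and OHCs were compared gene by gene, to ask which parts of the axoneme differ between the 2 cell types at birth. Levels are given as CPM, the reads of a gene scaled to the TMM-normalised size of its library. Log2 fold changes are OHC over IHC, so that negative values mark genes higher in IHCs, and adjusted p is from edgeR's quasi-likelihood test over all 13269 genes that passed its filter on low counts. Of the 86 genes, 73 passed this filter. Of these, 8 were IHC-enriched at an adjusted p under 0.05 and 0 were OHC-enriched. The enriched genes were Foxj1, Dnah11 and the 6 Cfap genes Cfap45, Cfap46, Cfap90, Cfap126, Cfap144 and Cfap251. All genes tested give a background of 3.81% IHC-enriched and 2.44% OHC-enriched (6.26% in either direction). The 0 in the OHC direction stands beside 4 genes higher in OHCs at an unadjusted p under 0.05, and beside 3 genes that DESeq2 called OHC-enriched. DESeq2 called 9.40% of all genes OHC-enriched. In bulk pools, a lower value can mean fewer cells that express a gene or less RNA per cell, and these cannot be told apart.

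**Figure D1:**
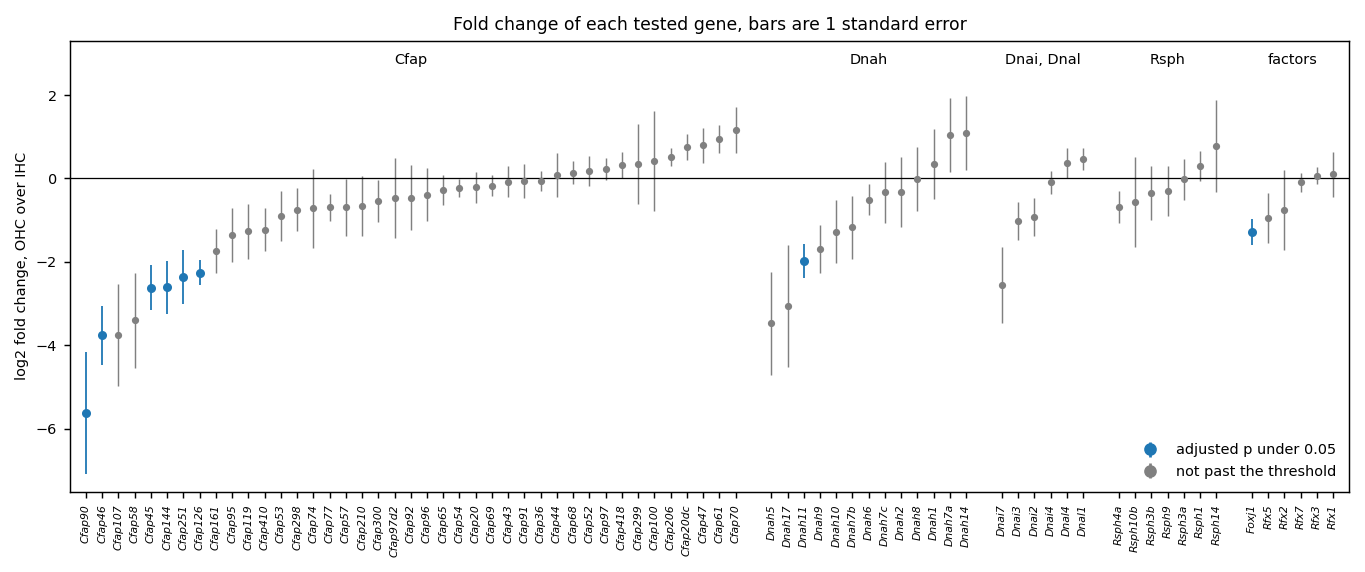
Log2 fold change (OHC over IHC, vertical axis) of the 73 genes tested, grouped as Cfap, Dnah, Dnai and Dnal, Rsph and transcription factors, with bars of 1 standard error. The 8 genes past the threshold, in blue, all lie below 0, and values range from -5.62 for Cfap90 to 1.17 for Cfap70.

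Over the 73 genes the median log2 fold change was -0.39, beside -0.04 over all genes tested. The fitted value was below 0 for 52 of the 73 (71.2%), beside 51.8% of all genes. At an unadjusted p under 0.05, 18 genes (24.7%) were higher in IHCs and 4 (5.48%) in OHCs, beside 12.4% and 9.36% of all genes. Without library IHC1, 9 of 76 genes tested were IHC-enriched, among them all 8 named above, and 0 were OHC-enriched, with a median of -0.27. In that fit, 3.68% of all genes were IHC-enriched and 2.90% OHC-enriched.

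Of the transcription factors, Foxj1 was higher in IHCs and no Rfx gene passed the test. Foxj1 (ENSMUSG00000034227, chr11:116221530-116226225, minus strand, GRCm39), the regulator of motile cilia, had the highest level of the 86 genes per length of transcript, at a mean of 122 TPM (reads scaled by the exonic length of the gene and by the library total) over the 12 libraries. In IHC libraries it ranged from 132 to 442 CPM with a median of 164 CPM, and in OHC libraries from 59.5 to 161 CPM with a median of 84.3 CPM. The groups overlapped, with 4 IHC values above the whole OHC range and the highest of them in IHC1. The mean was 226 ± 125 CPM in IHCs and 92.8 ± 35.8 CPM in OHCs (SD, n = 6 each), 2.44-fold higher in IHCs (log2 fold change -1.29, SE 0.32, adjusted p = 0.0182). The call held with each of the 12 libraries left out in turn, at adjusted p from 0.00783 to 0.0482.

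Rfx3, which is known from motile and primary cilia and from the hair cells themselves, was at 55.4 TPM and was the highest of its family. It ranged from 154 to 284 CPM in IHC libraries (median 241 CPM) and from 208 to 281 CPM in OHC libraries (median 245 CPM), so that one group lay within the other. Its log2 fold change was 0.07 (SE 0.20, adjusted p = 0.871), with an approximate 95% interval of -0.32 to 0.46. Rfx7, at 50.3 TPM, ranged from 141 to 422 CPM in IHCs and from 216 to 323 CPM in OHCs (log2 fold change -0.09, SE 0.23, adjusted p = 0.852). A change of 2-fold in either direction lies outside both intervals. Both genes changed the sign of their small fold change when single libraries were left out.

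The other Rfx genes were lower and varied more between pools. Rfx5, known for its control of MHC class II genes, was at 9.01 TPM and ranged from 4.58 to 63.6 CPM in IHCs and from 4.75 to 30.4 CPM in OHCs (log2 fold change -0.94, SE 0.59, adjusted p = 0.373). Rfx1, which acts with Rfx3 in hair cells, was at 8.17 TPM and ranged from 4.32 to 48.4 CPM and from 12.7 to 36.0 CPM (log2 fold change 0.10, SE 0.55, adjusted p = 0.939). Rfx2, a factor of multiciliated cells, was at 2.61 TPM and ranged from 0.440 to 31.7 CPM and from 0.305 to 21.4 CPM (log2 fold change -0.76, SE 0.96, adjusted p = 0.686). The intervals of these 3 genes reach beyond a 2-fold change in at least one direction, so that a difference of that size was not detectable with these pools. Rfx4, known from the developing brain, had at most 24 counts in a library, and Rfx6, known from pancreatic islets, at most 1, and neither was tested.

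**Figure D2:**
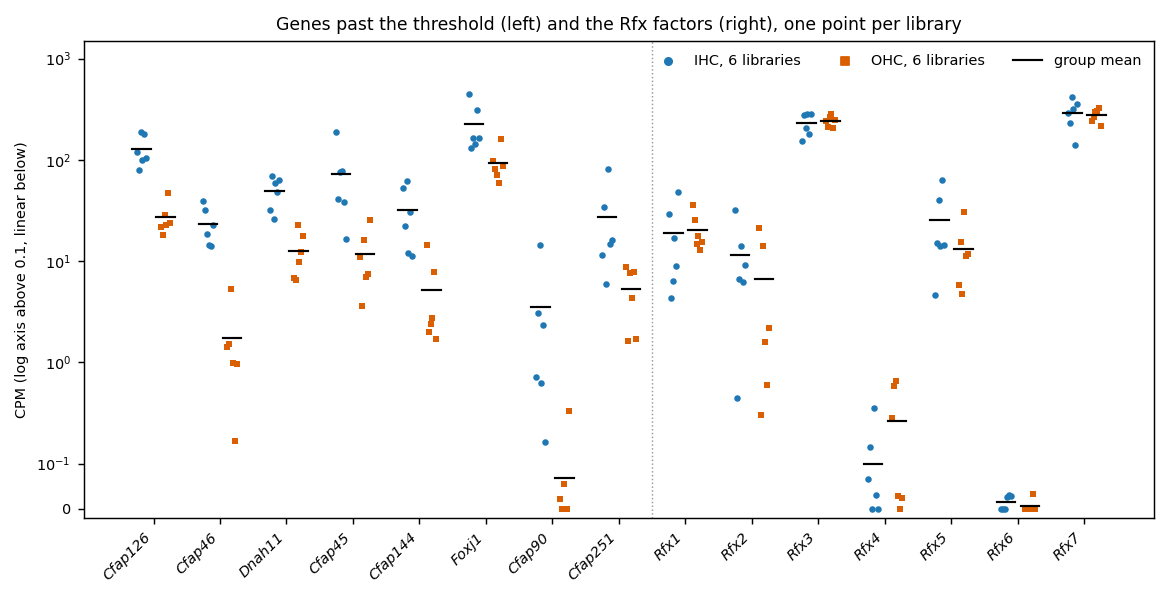
CPM of the 8 IHC-enriched genes (left of the dotted line) and of the 7 Rfx genes (right) in each of the 6 IHC (circles) and 6 OHC (squares) libraries, with group means as black lines and a vertical axis that is logarithmic above 0.1 and linear below. The groups separate fully for Cfap126, Cfap46 and Dnah11, while Rfx3 and Rfx7 lie at like levels in both cell types.

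Cfap126 was the gene with the lowest p-value among the 86. It encodes the protein also called Flattop, which lines the lumen of the doublet microtubules and is known for the positioning of basal bodies in the cochlea. Cfap126 (ENSMUSG00000026649, chr1:170941487-170954536, plus strand) ranged from 79.9 to 188 CPM in IHC libraries (median 112 CPM) and from 18.2 to 46.8 CPM in OHC libraries (median 23.2 CPM). Every IHC library lay above every OHC library. The means were 129 ± 45.04 and 26.99 ± 10.3 CPM (SD, n = 6 each), 4.78-fold higher in IHCs (log2 fold change -2.26, SE 0.30, adjusted p = 9.29e-05). With 114 TPM it was the second highest of the 86 genes per length of transcript.

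Cfap46 and Dnah11 also separated the groups fully. Among all genes tested, 2.37% had every IHC library above every OHC library, and among the 73 genes these were the 3. Cfap46 (ENSMUSG00000049571, chr7:139180867-139263733, minus strand), a part of the central apparatus, ranged from 13.97 to 39.1 CPM in IHCs (median 20.7 CPM) and from 0.167 to 5.29 CPM in OHCs (median 1.21 CPM). It was 13.6-fold higher in IHCs (log2 fold change -3.76, SE 0.70, adjusted p = 0.00245), and -4.54 without library OHC3, which had the highest OHC value. Dnah11 (ENSMUSG00000018581, chr12:117841717-118162778, minus strand), a heavy chain of the outer dynein arm, ranged from 25.9 to 69.5 CPM (median 53.5 CPM) and from 6.46 to 22.8 CPM (median 11.1 CPM). It was 3.92-fold higher in IHCs (log2 fold change -1.97, SE 0.41, adjusted p = 0.00535).

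In the other 4 IHC-enriched Cfap genes the groups overlapped. Cfap45 (ENSMUSG00000026546, chr1:172348368-172373437, plus strand), a protein of the doublet lumen whose RefSeq promoter holds the X-box printed first above, ranged from 16.4 to 187 CPM in IHCs (median 58.0 CPM) and from 3.63 to 25.4 CPM in OHCs (median 9.24 CPM). It lay above the whole OHC range in 5 of 6 IHC libraries (log2 fold change -2.61, SE 0.54, adjusted p = 0.00550). Cfap144 (ENSMUSG00000049154, chr11:58676742-58693068, minus strand), which also lies in the doublet lumen, ranged from 11.1 to 61.2 CPM (median 26.3 CPM) and from 1.71 to 14.4 CPM (median 2.58 CPM). It lay above the whole OHC range in 4 of 6 IHC libraries (log2 fold change -2.60, SE 0.64, adjusted p = 0.0175), and the value was -3.27 without library OHC1. Cfap45 and Cfap144 kept their calls with each of the 12 libraries left out.

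The calls of Cfap251 and Cfap90 were each lost when some single libraries were left out. In both genes, 5 of 6 IHC values lay above the whole OHC range. Cfap251 (ENSMUSG00000029442, chr5:123390165-123465548, plus strand), of the calmodulin- and spoke-associated complex, ranged from 5.99 to 80.7 CPM in IHCs (median 15.6 CPM) and from 1.62 to 8.67 CPM in OHCs (median 6.02 CPM). Its fold change on the log2 scale was -2.36 (SE 0.66, adjusted p = 0.0361). The call was lost without IHC2, IHC4, OHC2, OHC3, OHC4 or OHC6, and the value was -1.64 (adjusted p = 0.150) without IHC4. Cfap90 (ENSMUSG00000021534, chr13:68745105-68762352, plus strand), a protein of the doublet lumen, was low throughout, at 0.163 to 14.4 CPM in IHCs (median 1.54 CPM) and 0 to 0.328 CPM in OHCs (median 0.0108 CPM). Its log2 fold change was -5.62 (SE 1.45, adjusted p = 0.0238), and the call was lost without IHC3 (-4.26, adjusted p = 0.0675) or without any 1 of OHC1 to OHC5, while the value was -7.52 without OHC6. Adcy2 on the opposite strand covers 65.0% of the exonic bases of Cfap90. The strand setting of the counting is not given in the sources used here, so the effect of this overlap on the Cfap90 counts is not known.

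**Figure D3:**
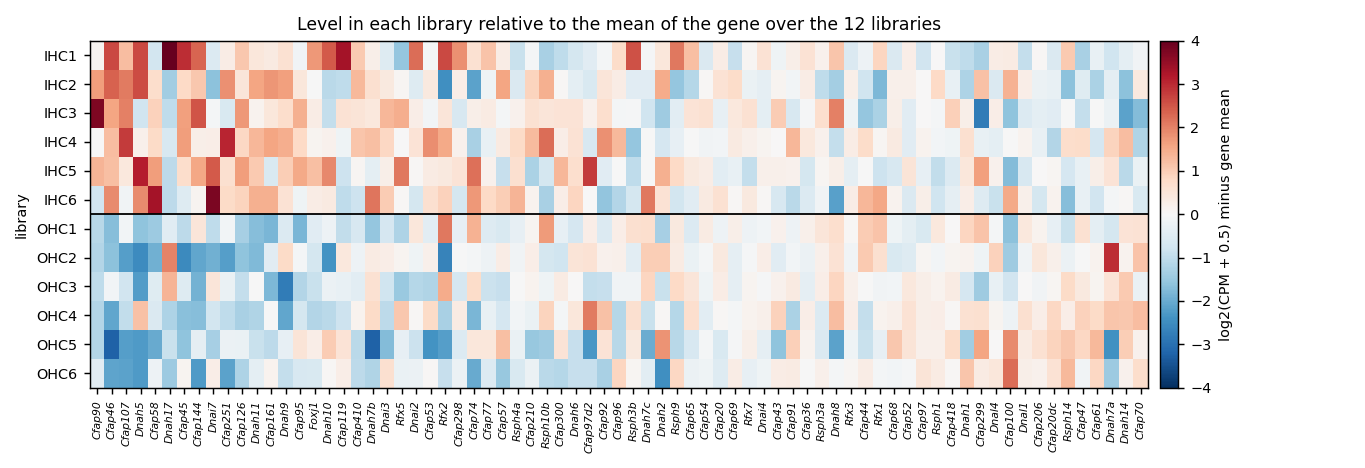
Level of each of the 73 genes tested (columns, ordered by fold change from IHC-enriched on the left) in each library (rows, 6 IHC above the line and 6 OHC below), as log2(CPM + 0.5) minus the mean of the gene over the 12 libraries. The genes at the left are red in most IHC rows and blue in most OHC rows, and single dark cells such as Dnah17 in IHC1 mark values set by 1 library.

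By their place in the axoneme the genes can be counted as follows, with groups drawn up here with the values known. Of all genes tested, 3.81% were IHC-enriched, 2.44% OHC-enriched and 51.8% fitted higher in IHCs. At an unadjusted p under 0.05, 12.4% of all genes were higher in IHCs and 9.36% in OHCs. The proteins of the doublet lumen and inner junction had the lowest median, at -1.35 over 13 genes tested. Of these genes, 11 were fitted higher in IHCs, 7 were higher in IHCs at an unadjusted p under 0.05 and 4 passed the test (Cfap45, Cfap90, Cfap126 and Cfap144). With single libraries left out this median was -1.66 to -1.16. The outer dynein arm had a median of -1.30 over 8 genes, but -0.05 without library IHC1 (-1.45 to -1.14 without any other library). Of its 8 genes, 4 were higher in IHCs at an unadjusted p under 0.05 and 1 (Dnah11) passed the test. The Rsph genes had a median of -0.30 over 7 genes with 0 past the quasi-likelihood test, 0 at an unadjusted p under 0.05 and 0 called by DESeq2. The inner dynein arm had a median of -0.33 over 9 genes with 0 past the same test, 1 at an unadjusted p under 0.05 and 0 called by DESeq2 (median -0.57 without OHC2). The central apparatus had a median of -0.25 over 6 genes, with 1 higher in IHCs at an unadjusted p under 0.05 and 1 (Cfap46) past the test. The calmodulin- and spoke-associated complex had a median of -0.05 over 3 genes, which was 0.35 without IHC4. Of its genes, 1 (Cfap251) passed the test, and at an unadjusted p under 0.05 1 was higher in each direction. The tethers and regulators of the inner arms had a median of 0.004 over 4 genes, of which 2 were fitted higher in each direction, with 0 past the quasi-likelihood test, 0 at an unadjusted p under 0.05 and 0 called by DESeq2.

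Most of the abundant genes of the set did not pass the test. Per length of transcript, the 8 highest after those above were Cfap206, Cfap68, Rsph1, Cfap77, Cfap418, Cfap97, Cfap69 and Cfap54, at 114 to 30.0 TPM. Cfap206, which docks radial spokes, ranged from 63.5 to 105 CPM in IHCs (median 86.3 CPM) and from 93.8 to 159 CPM in OHCs (median 121 CPM). Its OHC values leaned higher but overlapped those of IHCs (log2 fold change 0.52, SE 0.22, adjusted p = 0.165). Rsph1, of the radial spoke head, ranged from 13.5 to 47.6 CPM and from 25.3 to 36.7 CPM (log2 fold change 0.30, SE 0.36, adjusted p = 0.676). Cfap54, of the central apparatus like Cfap46, ranged from 113 to 258 CPM and from 125 to 210 CPM (log2 fold change -0.23, SE 0.22, adjusted p = 0.572). The log2 fold changes of the other 5 lay between -0.69 (Cfap77, adjusted p = 0.212) and 0.33 (Cfap418, adjusted p = 0.570).

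The 4 genes higher in OHCs at an unadjusted p under 0.05, named after their values were seen, were Cfap61, Cfap70, Cfap20dc and Cfap206. Cfap61, of the calmodulin- and spoke-associated complex like Cfap251, ranged from 18.3 to 51.9 CPM in IHCs and from 33.9 to 110 CPM in OHCs (log2 fold change 0.95, SE 0.34, adjusted p = 0.102). Cfap70 had a log2 fold change of 1.17 (SE 0.55, adjusted p = 0.224) and Cfap20dc, with an X-box in its promoter, 0.76 (SE 0.32, adjusted p = 0.174). The 7 tested genes with an X-box match had log2 fold changes from -3.40 (Cfap58) to 0.76, with a median of -0.74 and 5 of 7 fitted higher in IHCs, beside a median of -0.26 and 28 of 42 for those with a promoter and no match.

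The largest fold changes that missed the threshold were all towards IHCs and came with wide errors. Cfap107, a protein of the doublet lumen, ranged from 1.58 to 15.5 CPM in IHCs and from 0 to 1.62 CPM in OHCs (log2 fold change -3.74, SE 1.22, adjusted p = 0.0739), with 5 IHC values above the whole OHC range, and was at -4.52 without OHC1. Dnah5, the other well-known heavy chain of the outer arm, ranged from 1.15 to 24.6 CPM and from 0 to 5.87 CPM (log2 fold change -3.47, SE 1.23, adjusted p = 0.102). Without library OHC4, which held the 5.87 CPM, its log2 fold change was -6.32 at an adjusted p of 0.00346. Cfap58, known from the sperm flagellum, had a log2 fold change of -3.40 (SE 1.15, adjusted p = 0.0835) and Dnai7 of -2.55 (SE 0.91, adjusted p = 0.104), and without IHC6 these were -2.49 (adjusted p = 0.209) and -1.41 (adjusted p = 0.380). Dnah17, a heavy chain of sperm, was at 102 CPM in IHC1 and at 0.195 to 0.655 CPM in the other 5 IHC libraries, against 0.164 to 6.68 CPM in OHCs, so that its log2 fold change of -3.06 (SE 1.45, adjusted p = 0.226) became 2.38 (adjusted p = 0.250) without IHC1.

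The 13 genes that did not pass the filter on low counts were Cfap73, Cfap97d1, Cfap99, Cfap141, Cfap157, Cfap221, Cfap276, Dnah3, Dnah12, Dnai1, Rsph6a, Rfx4 and Rfx6. Cfap97d1 had 0 counts in all 12 libraries, which allows 0.0647 to 0.196 CPM per library at 3 counts, a limit that covers counting error only. Cfap276 and Dnai1 are described after their values were seen. Cfap276, of the doublet lumen, had 0 counts in all 6 IHC libraries and between 1 and 305 counts in the OHC libraries, of which 2 (OHC4 and OHC6) had more than 3. Its OHC mean of 2.02 CPM was at least 20.3-fold higher than the floor of 3 counts per library, but this mean rests on OHC4 (8.87 CPM), without which it was 0.648 CPM and at least 6.51-fold higher. Its OHC median of 0.0657 CPM lay below the mean floor of 0.0995 CPM. With no filter on low counts the same test gave an adjusted p of 0.0157. Dnai1, an intermediate chain of the outer arm with an X-box in its promoter, had 8 to 244 counts in IHC libraries and 0 to 9 in OHC libraries. Its levels were 0.209 to 5.96 CPM (median 4.04 CPM) and 0 to 0.244 CPM (median 0.169 CPM), and with no filter its log2 fold change was -4.72 at an adjusted p of 0.0322.

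Other genes of ciliogenesis, in lists that hold none of the 86, were counted in the same fit. Their counts stand beside the shares of all genes. The quasi-likelihood test called 3.81% of all genes IHC-enriched and 2.44% OHC-enriched, and DESeq2 called 7.92% and 9.40%. At an unadjusted p under 0.05, 12.4% of all genes were higher in IHCs and 9.36% in OHCs. Of 44 tested genes for other parts of the axoneme, 5 were IHC-enriched and 0 OHC-enriched by the quasi-likelihood test, with a median log2 fold change of -0.50. At an unadjusted p under 0.05, 11 of them were higher in IHCs and 1 (Tekt1) in OHCs, and DESeq2 called 10 and 0. Tekt2, a tektin of the doublets, ranged from 37.5 to 96.6 CPM in IHCs and from 10.9 to 27.7 CPM in OHCs (log2 fold change -1.84, SE 0.35, adjusted p = 0.00300). Hydin, of the central apparatus, ranged from 135 to 244 CPM and from 69.2 to 111 CPM (log2 fold change -0.99, SE 0.23, adjusted p = 0.0111). Both separated the groups fully, as did Drc7 of the nexin-dynein complex (-1.60, adjusted p = 0.0451), while Ccdc40, which sets the axonemal repeat, overlapped (-0.85, adjusted p = 0.0402).

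Of 20 tested genes for the assembly and docking of dynein arms, 2 were IHC-enriched and 0 OHC-enriched, with a median of -0.88, while 5 were higher in IHCs and 0 in OHCs at an unadjusted p under 0.05 and DESeq2 called 5 and 0. Odad1, of the docking complex of the outer arm, ranged from 15.2 to 94.7 CPM in IHCs and from 0.204 to 4.56 CPM in OHCs (log2 fold change -3.92, SE 0.68, adjusted p = 0.00124), with no overlap. Dnaaf5, an assembly factor of dynein arms, ranged from 107 to 246 CPM and from 77.1 to 116 CPM (log2 fold change -0.95, SE 0.24, adjusted p = 0.0189).

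The lists for the cilium at large held 0 genes past the quasi-likelihood test. The 32 tested genes of intraflagellar transport had a median of -0.13, with Ift20 at -0.88 (SE 0.32, adjusted p = 0.107) and with 5 genes higher in IHCs and 2 in OHCs at an unadjusted p under 0.05 (1 and 2 called by DESeq2). The 38 genes of the BBSome, the transition zone and ciliary small GTPases had a median of 0.05, with 1 higher in IHCs and 2 in OHCs at an unadjusted p under 0.05 (1 and 3 called by DESeq2). Of 21 genes for multiciliation and centriole amplification, 10 passed the filter, with a median of 0.29 and 2 higher in OHCs at an unadjusted p under 0.05 (0 and 1 called by DESeq2). The highest of these per length, Ccp110, which caps centrioles, was at 0.72 (SE 0.25, adjusted p = 0.0868). Of 143 tested genes in all these lists, the quasi-likelihood test called 7 IHC-enriched and 0 OHC-enriched, beside 3.81% and 2.44% of all genes. DESeq2 called 17 and 6, beside 7.92% and 9.40% of all genes. Whether any list differs from these shares was not tested.

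**Figure D4:**
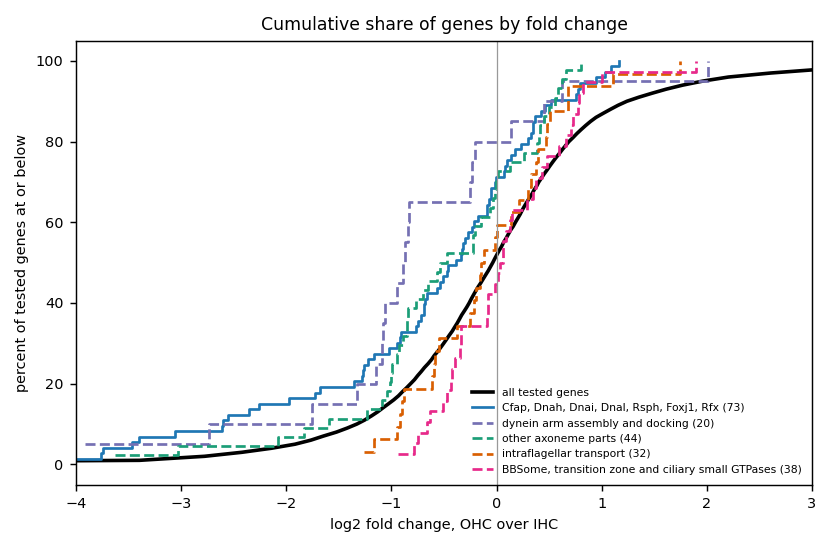
Cumulative percent of tested genes (vertical axis) at or below each log2 fold change (OHC over IHC, horizontal axis) for all 13269 genes in black, the 73 genes described here in blue, and 4 lists of other ciliary genes dashed. The axoneme genes and the lists for dynein arm assembly and other axoneme parts lie to the left of all genes, with medians of -0.39, -0.88 and -0.50, while intraflagellar transport and the BBSome list run close to it, with medians of -0.13 and 0.05.

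Markers of other cells that carry cilia were counted beside these results. Of 9 markers of multiciliated cells, Mcidas, Tmem212 and Ccdc153 were at 0 in all 12 libraries, Gmnc, Ccno and Deup1 reached at most 0.490 CPM in any library, and the remaining 3 (Dynlrb2, Tekt1 and Hydin) are axoneme genes. The summed level of the list was 206 to 308 CPM in IHCs and 139 to 194 CPM in OHCs, of which Hydin made 135 to 244 CPM and 69.2 to 111 CPM. Mesenchyme markers summed to 42.3 to 59.3 CPM in IHCs and 4.74 to 27.3 CPM in OHCs with 0 of 6 called, glial markers to 14.5 to 65.3 CPM and 5.73 to 26.3 CPM with 0 of 3 called, and supporting cell markers to 265 to 685 CPM and 295 to 484 CPM with 2 of 10 IHC-enriched and 1 OHC-enriched. These overlapping sums hold genes that moved in opposite directions. Gjb2 had a median of 189 CPM in IHCs and 31.9 CPM in OHCs (log2 fold change -2.83, adjusted p = 0.00334). Sox2 had medians of 75.4 and 26.4 CPM (-1.42, adjusted p = 0.0142). Prox1, the OHC-enriched gene, had medians of 20.7 and 218 CPM (2.92, adjusted p = 0.000467). Markers of the greater epithelial ridge summed to 589 to 1109 CPM and 56.7 to 425 CPM, nearly all of it Tecta, which was IHC-enriched (log2 fold change -1.81, adjusted p = 0.00211). Neuron markers summed to 1013 to 1632 CPM and 307 to 498 CPM, and all 3 tested (Nefl, Nefm and Snap25) were IHC-enriched, while Tubb3 and Stmn2 were near 0 in IHCs. Endothelium markers summed to 0.136 to 12.96 CPM and 9.57 to 155 CPM, and 4 of the 5 tested (Pecam1, Cdh5, Cldn5 and Kdr) were OHC-enriched. Macrophage markers reached at most 19.6 CPM and erythroid markers at most 3.20 CPM in any library. The sums for multiciliated cells, mesenchyme, greater epithelial ridge and neurons were higher in every IHC library than in any OHC library, and the part of these lists in the results was not tested.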

How the data were processed

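Per the sample labels and methods, the authors removed adapters with Trimmomatic, aligned reads to GRCm39 with STAR and counted them per gene with HTSeq (GENCODE vM27); tool versions and the strand setting are not given in the sources used here. The deposited values are raw counts for 55416 genes and 12 libraries. Counts were analysed with edgeR 4.0.16 in R 4.3.3 (genes kept by filterByExpr over the cell types with at least 10 counts and a total of 15; TMM; glmQLFit and glmQLFTest; Benjamini-Hochberg, threshold 0.05), and DESeq2 1.42.0 as an alternative. SE is the log2 fold change over the square root of F. CPM has no pseudocount. TPM uses the union of exons in GENCODE vM39, which also gives gene names, types and coordinates and covers 98.8% of identifiers. Reads carry no molecular identifiers. On simulated data, 40.0% of genes changed 4-fold were recovered, with 1 false call among 13269 genes. Named genes are the transcription factors, members past the threshold or with groups that did not overlap, the 8 highest others by TPM, and the 5 largest fold changes past no threshold; for other lists, up to 6 called and the 2 highest by TPM, of which 1 gene is not reported here. Members and lists were chosen with earlier results of these data known.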

Additional observations from a re-analysis of the deposited data

Results flagged for a closer look

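In 11 of 54 groups of 6 libraries tested among the named genes, the highest value lay apart from the other 5 by more than Dixon's 95% critical ratio. For normally distributed values, chance flags about 1 in 20 groups. The ratio was taken on CPM without a log scale, so that rate need not hold here. In IHCs, these were Dnah17 at 102 CPM and Cfap45 at 187 CPM in IHC1, Cfap418 at 108 CPM and Cfap90 at 14.4 CPM in IHC3, and Cfap58 at 19.6 CPM in IHC6. In OHCs, these were Cfap126 at 46.8 CPM, Foxj1 at 161 CPM and Cfap68 at 287 CPM in OHC5, Cfap46 at 5.29 CPM in OHC3, Dnah5 at 5.87 CPM in OHC4 and Cfap90 at 0.328 CPM in OHC6. The next highest value in the same cell type was 0.655 CPM for Dnah17, 28.7 CPM for Cfap126 and 96.8 CPM for Foxj1.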

How the results depend on the processing

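The number of IHC-enriched genes among the 86 was 14 with the edgeR exact test and 18 with DESeq2, and 6 to 11 under the other alternatives. All 8 calls were kept by the exact test and by DESeq2. These 2 tests also called more of all genes. The exact test called 5.64% of all genes IHC-enriched and 3.90% OHC-enriched, and DESeq2 called 7.92% and 9.40%. Under the other alternatives, 2.71% to 4.81% of all genes were IHC-enriched. The number of OHC-enriched genes was 1 with no filter on low counts and 3 with DESeq2 (Cfap61, Cfap70 and Cfap276), and 0 otherwise. With no filter, 3.34% of all genes were OHC-enriched. With single libraries left out, 7 to 9 genes were IHC-enriched, and the median log2 fold change was -0.50 to -0.27. Of the partner lists, 12 genes were IHC-enriched with the exact test, 17 with DESeq2 and 4 to 8 with single libraries left out (4 without OHC6, against 7), and 6 were OHC-enriched with DESeq2 and 0 to 1 with single libraries left out. Same-numbered IHC and OHC libraries did not deviate together (correlations -0.031 to 0.018, and no library correlated best with its own number). This check shows no pairing by number, but it cannot exclude that same-numbered pools came from the same pups. With the replicate block, 11 of the 86 genes were IHC-enriched, 7 of them among the 8, the median was -0.23, and 1 partner gene was OHC-enriched. Signs that turned were those of Dnah17 (0.13 with the block, 2.38 without IHC1 and down to -3.93 without another library), Cfap68 (-0.15 without OHC5, up to 0.24 without another), Rfx1 (-0.16 to 0.61 over single libraries left out), Rfx3 (-0.03 to 0.14) and Rfx7 (-0.25 to 0.029). The cause was not tested. The number of genes with a higher mean in IHCs was 43 of 85 by TPM, 48 with ribosomal RNA genes taken out of the total and 58 by CPM, so TPM was used between genes and not between cell types. With 6 pools a group, a 2-fold difference in genes with an SE near 0.5 or above was not detectable. At a lower SE such a difference could also miss the threshold of the quasi-likelihood test. Dnai3 (log2 fold change -1.02, SE 0.45) had an adjusted p of 0.190 and Drc1 (-1.01, SE 0.33) of 0.0733, while Hydin (-0.99, SE 0.23) passed at 0.0111. The medians by place in the axoneme and the bound of Cfap276 with libraries left out were alternatives chosen after seeing the data.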
